A study of Mus musculus with 2 samples.

Results

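The macrophage genes described here were 9 of the 19465 genes measured: Cd68, Csf1r, Adgre1, Mrc1, Cd163, Lyz2 and the complement genes C1qa, C1qb and C1qc. They were chosen by symbol, as established markers of the macrophage lineage and of some of its tissue-resident forms, with earlier results of these data known. Their counts were followed in the healing mouse femur, across the bone of the fracture site, the soft tissue rim around it and the rest of each section.

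Macrophages are phagocytic cells of the myeloid lineage that clear dead cells, matrix debris and pathogens, and they renew themselves in tissues or arise from blood monocytes. Survival of the lineage depends on CSF1 and IL34, which signal through the receptor encoded by Csf1r, and bone-resorbing osteoclasts come from the same precursors and depend on the same receptor. In bone, macrophages line the surfaces where osteoblasts work, surround maturing erythroblasts in the marrow and accumulate in the callus after a fracture. C1QA, C1QB and C1QC are the 3 chains of C1q, the recognition molecule of the classical complement pathway, which in adult tissue is made largely by macrophages and dendritic cells. CD68 is a lysosomal membrane protein, ADGRE1 is the F4/80 surface antigen, MRC1 is the mannose receptor CD206, CD163 is the scavenger receptor for haptoglobin-bound haemoglobin, and LYZ2 is the lysozyme of myeloid cells.

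Spatial transcriptomics measured 1 femur section per condition. Both animals were female bone cell reporter mice, in which fluorescent proteins mark cells that express Ibsp or Acp5, and both received a mid-diaphyseal osteotomy of the right femur under an external fixator at 12 weeks of age. From bridging of the gap onwards the Loaded mouse received cyclic compression through the fixator, and the Control mouse was sham-loaded without force. The femurs were collected 5 weeks after surgery, at 17 weeks of age, decalcified in EDTA and embedded in paraffin, and probes against the transcriptome were counted as unique molecular identifiers (UMIs) on spots laid out at a pitch of 100 µm. Because 1 mouse stood for each condition, a difference between the sections cannot be told apart from a difference between mice, between planes of section or between library preparations, and no p-values are given. A spot is a small region that can hold several cells of different types, and spots of 1 section are not replicates.

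After removal of spots below 500 UMIs or 250 genes, 1898 Control spots and 1431 Loaded spots remained. The region called bone here was the study's own list of 277 spots over bone between the middle pins, of which 131 lay in the Control and 146 in the Loaded section. The rim was every other spot within 250 µm of a bone spot, with 253 Control and 264 Loaded spots. The remaining 1514 Control and 1021 Loaded spots covered muscle, marrow, distant cortex and other tissue, and they were not matched between the sections. In the remaining spots, genes of skeletal muscle fibres took 22.6% of UMIs in the Control and 14.4% in the Loaded section. The median depth ranged from 2132 to 3478 UMIs per spot over the 6 regions. Levels are UMIs per spot after division by scran size factors, so that 1 unit is 1 UMI in a spot of average size factor. Intervals are exact 95% intervals that cover counting error only. The spread within a section is given as the range over 4 blocks of each region, cut by the side of the bone and by position along the shaft.

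The C1q genes lie side by side, within 18.7 kb on chromosome 4 of the mm10 build and on the minus strand: C1qb from 136880129 to 136886187, C1qc from 136889804 to 136893065 and C1qa from 136895917 to 136898803. The promoters of C1qb and C1qc are shown because they are C1q genes with a promoter sequence at hand, and that of Mrc1 because among the members with at least 50 UMIs in the rims this gene differed most between the sections there. Each is 300 bases of RefSeq sequence of build GRCm38.p6, from 250 bases before to 50 bases after the start of the gene in RefSeq, which is not the start given above for the GENCODE models, at chr4:136886151-136886450 (minus strand), chr4:136892865-136893164 (minus strand) and chr2:14229164-14229463 (plus strand). Capitals mark matches to GAGGAA or its reverse complement TTCCTC, the core bound by PU.1, which drives many myeloid genes, and to TGCTGA or its reverse complement TCAGCA, part of the element bound by MAF factors.
C1qb: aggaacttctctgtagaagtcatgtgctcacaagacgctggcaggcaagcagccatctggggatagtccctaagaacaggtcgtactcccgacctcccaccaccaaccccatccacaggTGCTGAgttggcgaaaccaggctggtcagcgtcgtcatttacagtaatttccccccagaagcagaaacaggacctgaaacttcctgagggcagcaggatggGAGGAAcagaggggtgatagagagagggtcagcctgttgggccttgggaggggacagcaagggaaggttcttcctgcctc
C1qc: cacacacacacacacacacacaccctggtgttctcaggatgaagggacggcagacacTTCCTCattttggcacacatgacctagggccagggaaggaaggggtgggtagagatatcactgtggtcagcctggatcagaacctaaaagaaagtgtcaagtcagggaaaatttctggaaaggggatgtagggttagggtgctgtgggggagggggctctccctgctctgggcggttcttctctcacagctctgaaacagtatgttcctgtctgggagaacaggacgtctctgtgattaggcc
Mrc1: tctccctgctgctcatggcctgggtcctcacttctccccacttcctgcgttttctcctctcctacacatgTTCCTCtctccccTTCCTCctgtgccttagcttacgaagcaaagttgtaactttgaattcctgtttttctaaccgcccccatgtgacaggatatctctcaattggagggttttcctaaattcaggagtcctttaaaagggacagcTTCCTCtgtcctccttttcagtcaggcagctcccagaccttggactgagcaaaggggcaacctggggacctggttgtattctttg
The PU.1 letters occurred 1 time in the C1qb window, 1 time in that of C1qc and 3 times in that of Mrc1. They were present in 28.3% of all 32851 promoters of the same length, and the MAF letters, found 1 time in C1qb, in 19.5%. Of the 6 members with a promoter sequence at hand, Cd68 held 2 matches to the PU.1 letters, Lyz2 held 1 to the MAF letters, and Cd163 held neither. C1qa, Csf1r and Adgre1 had no entry. Such matches are a description of the letters and not evidence of binding.

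The 9 genes gave 7324 UMIs in the kept spots of both sections. The C1q genes were the best sampled, with 2663 UMIs of C1qa, 1159 of C1qc and 920 of C1qb, so that C1qa alone made 36.4% of the total. Cd68 gave 903 UMIs, Csf1r 717, Mrc1 649 and Cd163 240. Adgre1 and Lyz2 were nearly undetected, at 39 and 34 UMIs. The number of UMIs depends on the probes of each gene, so levels were compared between places and not between genes. The defining markers of the lineage were therefore present in both sections, except that F4/80 and lysozyme were too sparse to map.

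**Figure D1:**
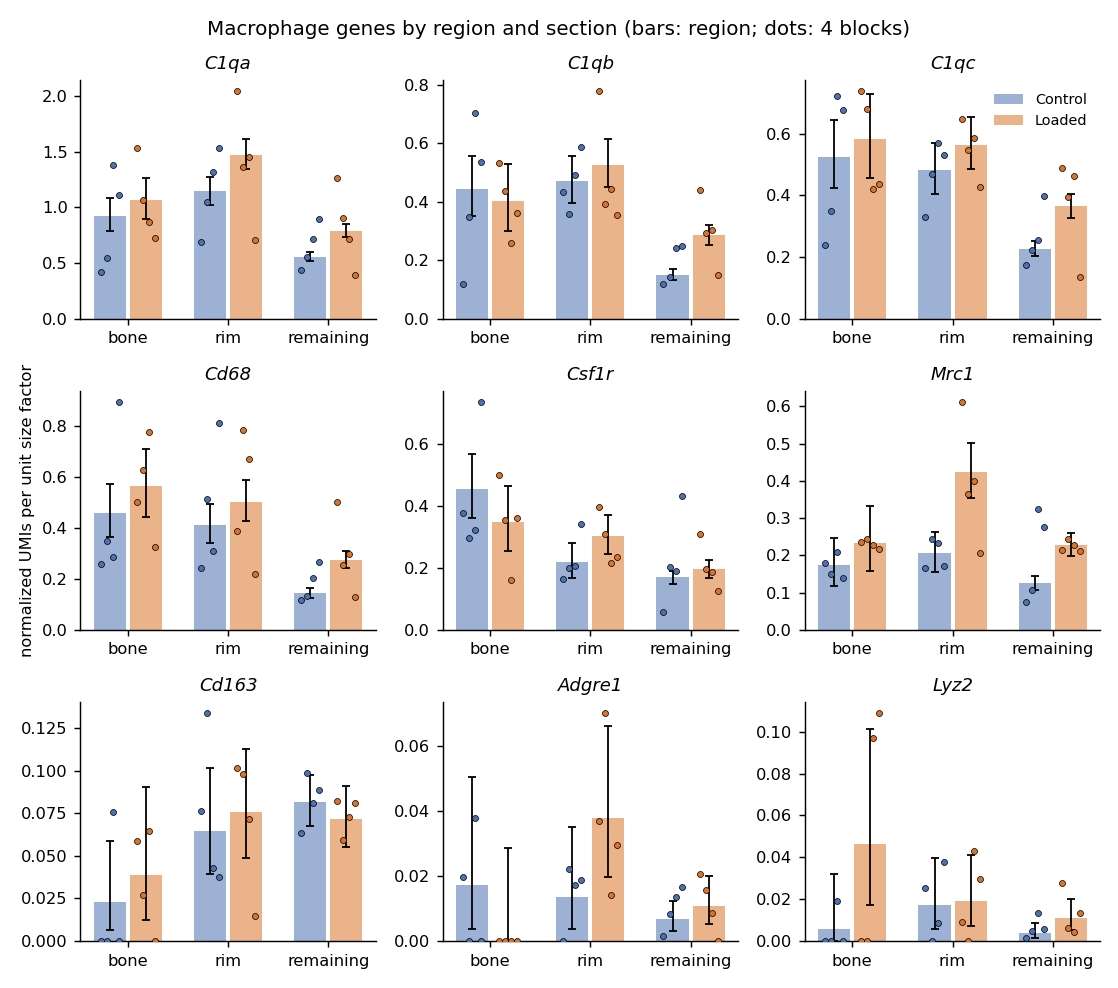
Normalized UMIs per spot of the macrophage genes (one panel per gene, vertical axis) in bone, rim and remaining spots of the Control and the Loaded section, with bars for the whole region, thin lines for its exact 95% counting interval and small points for the 4 blocks. Cd68 and the C1q genes stood higher in bone and rim than in the remaining spots, Mrc1 was highest in the Loaded rim at 0.423, and Cd163 was lowest in bone.

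In both sections the summed macrophage genes were denser in bone and in the rim taken as a whole than in the remaining spots. The faces of the rim differed, as described below. Summed over the 9 genes, the Control level was 3.03 in bone, 3.03 in the rim and 1.46 in the remaining spots, and the Loaded level was 3.29 in bone, 3.93 in the rim and 2.23 in the remaining spots. The log2 ratio of bone over remaining was 1.05 in the Control (interval 0.91 to 1.19) and 0.56 in the Loaded section (0.40 to 0.71), and that of rim over remaining was 1.05 (0.94 to 1.16) and 0.82 (0.71 to 0.92). Blocks of a region differed widely: in the Control they spanned 1.61 to 4.10 in bone, 2.12 to 4.07 in the rim and 1.05 to 2.63 in the remaining spots. The Loaded blocks spanned 2.54 to 4.10, 2.23 to 5.02 and 1.24 to 3.35, so the blocks of the 3 regions overlapped in each section. Where muscle-rich spots, in which the muscle list took at least 10% of UMIs, were left out of the remaining spots, a choice made after seeing the data, bone exceeded remaining by 0.41 in the Control and 0.27 in the Loaded section, and rim exceeded it by 0.41 and 0.53. Muscle-rich spots stayed in bone and rim: 46 of the Control and 6 of the Loaded bone spots, and 67 spots of each rim. With only spots below 5% muscle kept in every region, bone exceeded remaining by 0.66 in the Control and 0.43 in the Loaded section. Rim then exceeded remaining by 0.56 and 0.46. In bulk spots such as these, more macrophages and more RNA per macrophage cannot be told apart.

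The lysosomal gene Cd68 was the member most raised at bone in the Control. Its level there was 0.461 in bone (80 UMIs), 0.413 in the rim (121) and 0.144 in the remaining spots (216), and in the Loaded section 0.566 (73), 0.505 (160) and 0.275 (253). Bone and rim were thus close to each other and both lay above the remaining spots, with log2 ratios over remaining of 1.67 and 1.52 in the Control and 1.04 and 0.88 in the Loaded section, all with intervals above 0. The blocks overlapped in each case, since 1 Control bone block was at 0.258 and 1 Control remaining block at 0.266.

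Csf1r, the CSF1 receptor, was highest in bone in both sections. The Control level was 0.455 in bone (79 UMIs), 0.219 in the rim (64) and 0.169 in the remaining spots (253). The Loaded level was 0.349 (45), 0.303 (96) and 0.195 (180), where the intervals of bone and rim overlapped. Unlike Cd68, the Control rim was little above the remaining spots (log2 ratio 0.37, interval -0.05 to 0.77), whereas bone exceeded them by 1.43 (1.04 to 1.80). Osteoclasts also express Csf1r and Cd68, and a list of 9 osteoclast genes had the same order of regions within each section: its summed level was 12.4 in bone, 7.36 in the rim and 5.71 in the remaining spots of the Control, and 15.4, 6.59 and 5.87 in the Loaded section. Between the sections, in bone, the summed list was higher and Csf1r lower in the Loaded section. The interval of the Csf1r ratio held 0 (-0.38, -0.95 to 0.16). Of the 9 osteoclast genes, 2 were at least 1.5-fold higher in Loaded bone and 2 lower, against 27.1% and 17.6% of 10003 genes. Over square tiles of 600 µm, Csf1r correlated with the osteoclast list at r = 0.61 over 60 Control tiles and 0.72 over 45 Loaded tiles, and with C1qa at 0.42 and 0.54. The osteoclast list was not particular in this. An osteoblast list gave 0.58 and 0.72, and a list of MHC class II genes of antigen-presenting cells gave 0.58 and 0.74. The part of osteoclasts in the Csf1r counts was not tested.

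The C1q chains, like Cd68, were higher in bone and rim than in the remaining spots. Unlike Cd68, C1qa and C1qb were highest in the rim in both sections. For C1qa the Loaded intervals of bone (0.898 to 1.26) and rim (1.35 to 1.62) did not overlap. The level of C1qa was 0.928 in bone (161 UMIs), 1.14 in the rim (335) and 0.556 in the remaining spots (832) of the Control, and 1.07 (138), 1.48 (468) and 0.792 (729) in the Loaded section. C1qb stood at 0.444 (77), 0.471 (138) and 0.150 (224) in the Control and at 0.403 (52), 0.527 (167) and 0.285 (262) in the Loaded section. C1qc stood at 0.524 (91), 0.482 (141) and 0.226 (338), and at 0.581 (75), 0.565 (179) and 0.364 (335). All 3 chains were lowest in the remaining spots of both sections. The Control blocks of C1qb in the rim, from 0.357 to 0.587, all lay above its remaining blocks, from 0.117 to 0.249, a separation that 0.677% of 14326 genes showed in that comparison. No other member's blocks separated in a contrast of regions within a section. In those contrasts the share of all genes with all blocks higher and with all blocks lower was 0.862% and 4.25% for bone over remaining in the Control, 4.41% and 6.15% in the Loaded section, and 2.25% and 2.58% for rim over remaining in the Loaded section, with 1.61% lower in the Control rim. As a share of the summed C1q UMIs, C1qa made 48.9% to 59.7%, C1qb 16.1% to 23.4% and C1qc 22.0% to 28.3% over the 6 regions.

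The mannose receptor gene Mrc1 did not mark bone. Its Control level was 0.173 in bone (30 UMIs), 0.205 in the rim (60) and 0.124 in the remaining spots (186), and bone exceeded remaining by a log2 ratio of 0.48 with an interval that held 0 (-0.13 to 1.04). In the Loaded section it was 0.232 in bone (30), 0.423 in the rim (134) and 0.227 in the remaining spots (209), and the ratio of bone over remaining was 0.03 (-0.57 to 0.59). Its rim was the highest region in both sections, though in the Control the intervals of rim and bone overlapped. It exceeded the remaining spots by 0.72 in the Control (0.28 to 1.15) and 0.90 in the Loaded section (0.57 to 1.22), although the Control value turned to -0.26 once the muscle-rich spots were left out of the remaining spots.

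Cd163, the haemoglobin scavenger receptor, was lowest in bone in both sections. In the Control it gave 4 UMIs in bone, 19 in the rim and 122 in the remaining spots, or levels of 0.0231, 0.0649 and 0.0816. In the Loaded section it gave 5, 24 and 66 UMIs, or 0.0387, 0.0757 and 0.0717. Control bone was 3.54-fold below the remaining spots (log2 ratio -1.82, interval -3.72 to -0.43), and the Loaded ratio had the same sign with an interval that held 0 (-0.89, -2.56 to 0.41). Rim over remaining was -0.33 in the Control and 0.08 in the Loaded section, and both intervals held 0. With each spot thinned to 1000 UMIs, Cd163 was found in 1.53% of bone and 1.82% of remaining spots of the Control. The Loaded shares were 2.29% and 2.27%. The bone shares rest on 2 Control and 3 Loaded spots.

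Adgre1 gave 3, 4 and 10 UMIs in bone, rim and remaining spots of the Control and 0, 12 and 10 in the Loaded section. The 0 in Loaded bone allows up to 3.69 UMIs, so a difference from the 3 UMIs of Control bone was not detectable at this depth. Lyz2 gave 1, 5 and 6 UMIs in the Control and 6, 6 and 10 in the Loaded section.

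Counted over the genes with at least 10 UMIs in the regions compared, 6 of 8 members were at least 1.5-fold higher and 1 was lower in bone than in remaining spots of the Control, against 20.8% and 25.2% of 14033 genes. In the Loaded section the counts were 4 and 1 of 9, against 22.7% and 19.9% of 13002 genes. For rim over remaining they were 7 and 0 of 9 in the Control, against 21.0% and 18.9% of 14326 genes, and 8 and 0 of 9 in the Loaded section, against 15.0% and 15.5% of 13513 genes. The median log2 ratio of the members was 1.29 and 0.50 for bone and 1.04 and 0.88 for the rim, beside -0.06, 0.04, 0.03 and 0.03 over all genes tested. Cd163 was the gene at least 1.5-fold lower in bone in both sections. The higher members included the sparse Adgre1 in Control bone, the sparse Lyz2 in Loaded bone and both in each rim. With 0 UMIs in Loaded bone and 10 in the Loaded remaining spots, Adgre1 was given a ratio of 0 and entered the median so. Higher medians than those of all genes were not particular to macrophage genes. A list of fibroblast and tendon genes had 1.34 and 0.68 for bone and 1.26 and 0.44 for the rim. The osteoclast list had 1.26 and 1.56 for bone and 0.35 and 0.54 for the rim. An endothelial list lay between 0.06 and 0.07 throughout, and the muscle list between -1.61 and -1.07.

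The share of spots with at least 1 UMI of any of the 9 genes was 86.3%, 81.8% and 56.5% in Control bone, rim and remaining spots, and 84.9%, 85.6% and 62.3% in the Loaded section. With each spot thinned to 1000 UMIs, the shares were 56.5% (exact binomial interval 47.6% to 65.1%), 49.4% (43.0% to 55.8%) and 29.6% (27.1% to 32.2%) in the Control. They were 59.5% (50.6% to 68.0%), 61.3% (55.1% to 67.3%) and 37.7% (34.6% to 40.9%) in the Loaded section. Spots below 1000 UMIs were left out, namely 0, 4 and 252 in the Control and 15, 8 and 53 in the Loaded section. Muscle-rich remaining spots, given as a background dominated by RNA of other cells, had thinned shares of 17.5% in the Control and 26.9% in the Loaded section. Bone and rim of both sections stood above those shares. Spots chosen for muscle UMIs hold fewer UMIs of other genes within a fixed 1000, so part of that gap was set by the choice. Without thinning the muscle-rich spots stood at 59.3% in the Control and 60.6% in the Loaded section, still below bone and rim. Their median depths were 6407 and 3589 UMIs.

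**Figure D2:**
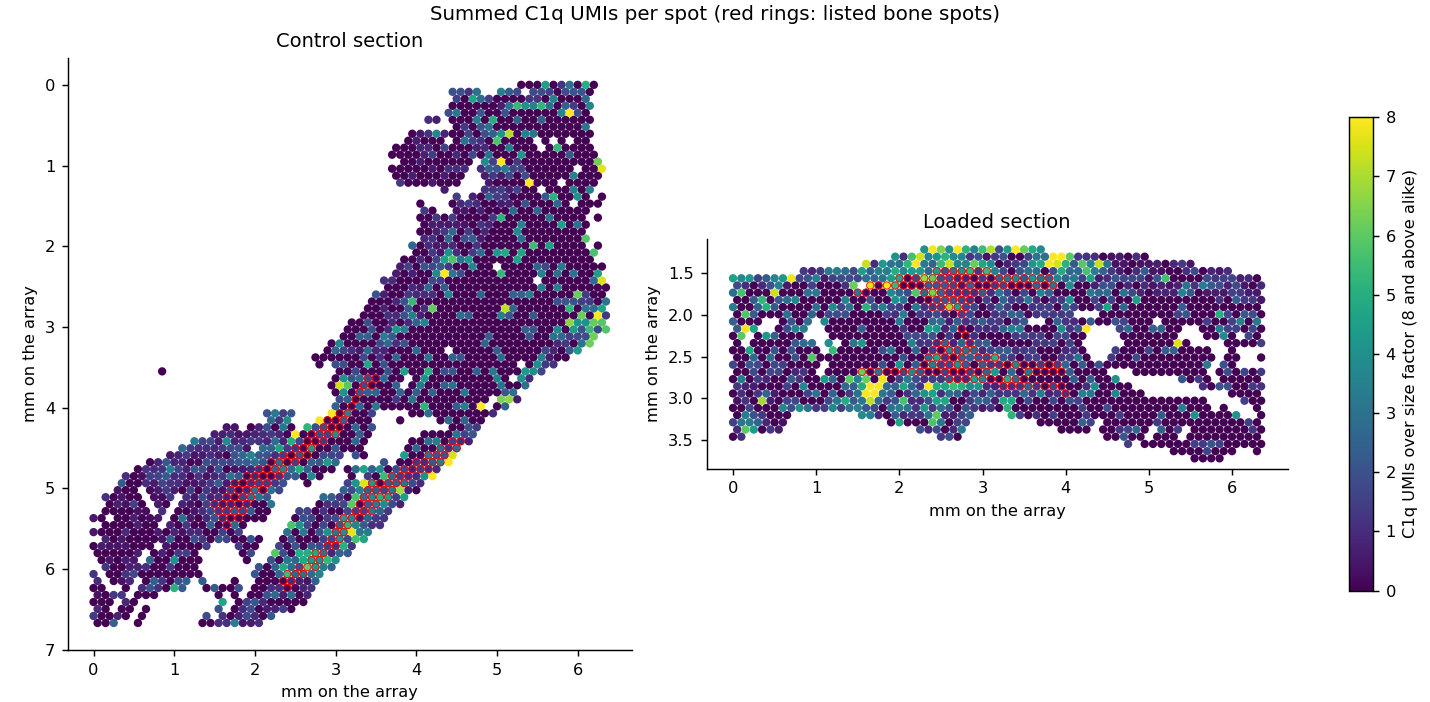
Map of the summed C1q genes in the Control and the Loaded section, with each kept spot placed by its position in mm on the array, coloured by normalized UMIs per spot, and with bone spots outlined. High values bordered the bone in both sections, and in the Loaded section they extended outwards from the bone.

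The same question was then asked of loading, that is, whether these genes differed between the Loaded and the Control section within each region. In bone they differed little. The summed level was 3.29 in Loaded and 3.03 in Control bone, a log2 ratio of 0.12 (interval -0.07 to 0.30). None of the 6 members with at least 10 UMIs in both bones together was 1.5-fold apart in either direction, against 27.1% higher and 17.6% lower of 10003 genes. The ratios were 0.29 for Cd68 (-0.18 to 0.77), 0.20 for C1qa (-0.13 to 0.54), 0.15 for C1qc, -0.14 for C1qb and -0.38 for Csf1r (-0.95 to 0.16), and every interval held 0. The Mrc1 blocks of Loaded bone, from 0.218 to 0.245, all lay above those of Control bone, from 0.139 to 0.209, as for 4.99% of all genes tested, but the total was 30 UMIs in each bone and the interval of its ratio of 0.43 was wide (-0.35 to 1.21). No member had all Loaded blocks lower, against 2.31% of genes. Adgre1, Lyz2 and Cd163 had fewer than 10 UMIs.

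In the rim the summed level was higher in the Loaded section, and among the members with 50 or more UMIs Mrc1 differed most. The summed level was 3.93 in the Loaded and 3.03 in the Control rim, a log2 ratio of 0.38 (0.25 to 0.50). Mrc1 was 2.06-fold higher, at 0.423 against 0.205 (log2 ratio 1.04, interval 0.59 to 1.51). Its Control blocks ran from 0.165 to 0.245 and its Loaded blocks from 0.206 to 0.611, so the lowest Loaded block fell within the Control range. Leaving out single blocks moved its ratio between 0.67 and 1.23. C1qa had a ratio of 0.37 (0.16 to 0.57), and Csf1r one of 0.47 with an interval that reached 0 (-0.00 to 0.95). Cd68 (0.29), C1qc (0.23), Cd163 (0.22) and C1qb (0.16) had intervals that held 0. Adgre1 gave 12 against 4 UMIs, for a ratio of 1.47 (-0.25 to 3.56). With Mrc1 and Adgre1, 2 of 9 members were at least 1.5-fold higher and 0 lower, a count close to the background of 17.0% higher and 17.7% lower of 11704 genes, and the median of the members was 0.29 beside 0.00 over all genes. The blocks of each member overlapped between the sections, while 2.69% of genes had all blocks higher and 2.09% all blocks lower.

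In the remaining spots the difference was larger. The summed level was 2.23 in the Loaded and 1.46 in the Control section (log2 ratio 0.61, 0.52 to 0.70). Cd68 (0.93, 0.66 to 1.20) and C1qb (0.93, 0.66 to 1.19) led, followed by Mrc1 (0.87, 0.58 to 1.16), C1qc (0.69, 0.46 to 0.91) and C1qa (0.51, 0.36 to 0.65). Csf1r was at 0.21 (-0.08 to 0.49), Cd163 at -0.19 (-0.64 to 0.26) and Lyz2, with 10 against 6 UMIs, at 1.44 (-0.17 to 3.18). Of the 9 members 6 were at least 1.5-fold higher, among them the sparse Lyz2 and Adgre1, and 0 lower, against 18.6% and 14.8% of 15485 genes, with medians of 0.70 and 0.04. The blocks of each member overlapped here too, while they separated upwards for 0.995% and downwards for 1.38% of genes.

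The share of muscle moved with these differences. Where only spots with less than 5% of UMIs from the muscle list were kept, the summed ratio of Loaded over Control was -0.07 in the rim and 0.04 in the remaining spots, against 0.38 and 0.61 in all spots, and -0.19 in bone. C1qa then stood at -0.20 in the rim and -0.01 in the remaining spots. Muscle genes took 13.3% of UMIs in the Control and 8.44% in the Loaded rim. In bone they took 10.7% in the Control and 5.77% in the Loaded section. The part of tissue make-up in the contrasts of bone, rim and remaining spots was not tested.

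**Figure D3:**
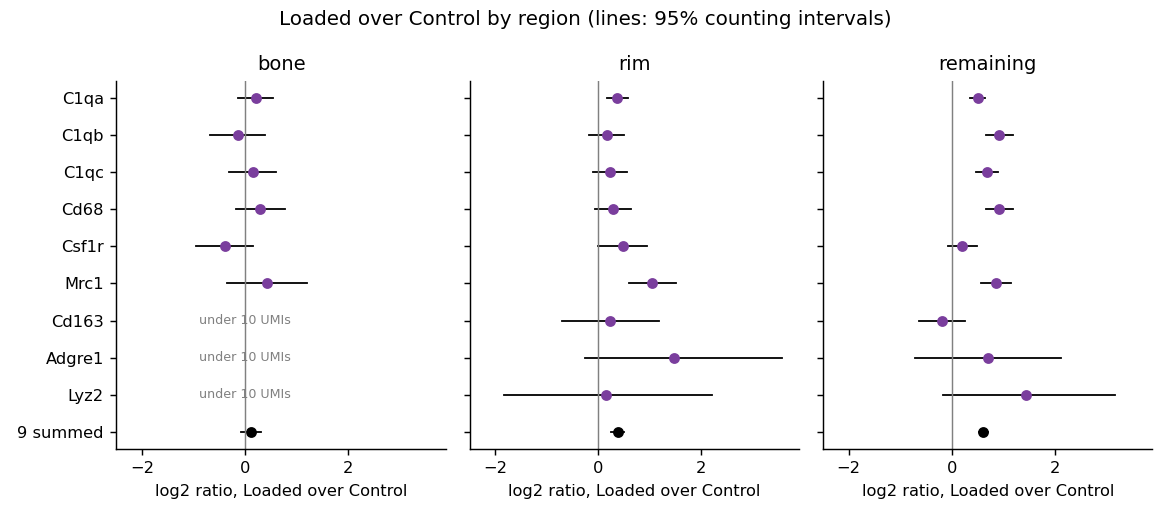
Log2 ratio of Loaded over Control for each macrophage gene and for their sums (horizontal axis), in bone, rim and remaining spots, with exact 95% counting intervals. Intervals in bone held 0, Mrc1 was the furthest from 0 in the rim among the well-counted genes at 1.04, and Cd68 and C1qb were at 0.93 in the remaining spots.

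The rim surrounds the bone on both faces, and for summed C1q the higher level of the Loaded section was on the outer face. The cavity side was taken as the space between the opposite walls of the bone, and the outer side as the tissue beyond them. On the outer side of the rim the summed C1q level was 3.27 in the Loaded section (675 UMIs, 122 spots) and 2.30 in the Control (505 UMIs, 116 spots), a log2 ratio of 0.51 (0.34 to 0.68). On the cavity side it was 1.27 (128 UMIs, 127 spots) against 1.503 (95 UMIs, 125 spots), a ratio of -0.25 (-0.64 to 0.15). The outer side exceeded the cavity side in both sections: cavity over outer was -0.62 in the Control (-0.95 to -0.30) and -1.37 in the Loaded section (-1.65 to -1.09). In the Loaded section the cavity side of the rim, at 1.27, was below the remaining spots, at 1.44. In the Control it was above them, at 1.503 against 0.932.

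For Mrc1 the Loaded over Control ratios of the faces lay further apart than for summed C1q. Their intervals overlapped, however, while those of summed C1q did not. On the outer side the Mrc1 level was 0.514 in the Loaded section (106 UMIs) and 0.192 in the Control (42 UMIs), 2.68-fold higher (log2 ratio 1.42, 0.90 to 1.98). On the cavity side it was 0.267 (27 UMIs) and 0.269 (17 UMIs), a ratio of -0.01 with a wide interval (-0.94 to 0.96). Taken apart by the 2 sides of the bone, which do not match anatomical faces between the sections, outer Mrc1 was 0.605 and 0.346 in the Loaded section and 0.185 and 0.196 in the Control, so each Loaded side exceeded each Control side. C1q stood at 3.56 and 2.74 in the Loaded section and at 1.80 and 2.63 in the Control, where the lower Loaded side was close to the higher Control side. Of the 7 members with at least 10 UMIs, 3 were at least 1.5-fold higher on the outer rim and 0 lower, against 15.4% and 17.7% of 10289 genes. These were Mrc1, C1qa (0.61, 0.39 to 0.84) and Csf1r (0.60, 0.04 to 1.17). C1qb (0.43, 0.06 to 0.81), Cd68 (0.41, -0.01 to 0.83), C1qc (0.29) and Cd163 (0.27) were also above 0. On the cavity side 0 were higher and 1, C1qb, was lower (-0.62, interval -1.43 to 0.18), against 20.6% and 23.0% of 8440 genes. Csf1r fell just short of 1.5-fold there, with a ratio of 0.57 close to its outer value (26 against 11 UMIs, -0.50 to 1.73). The sparse Adgre1 gave 7 Loaded and 0 Control UMIs on the cavity side, and 5 and 4 on the outer side.

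The reach of the signal away from the bone also differed. On the outer side of the Control, the C1q level was 2.63 within 150 µm of bone, 1.89 from 150 to 250 µm, 1.22 from 250 to 500 µm and 1.20 from 500 to 1000 µm. In the Loaded section it was 3.20, 3.35 and 3.33 over the first 3 distances and 1.60 over the last, where 27 spots gave 44 UMIs. Pooled over the sides of the bone, the Control level therefore lessened with distance, while the Loaded level held to 500 µm. At 250 to 500 µm the Loaded value averaged sides that differed widely. The Control value there came almost only from a single side, so side and distance cannot be told apart in its decline. Toward the cavity the Control levels were 1.74, 1.23 and 1.20 and the Loaded levels 1.28, 1.25 and 0.928 over the first 3 distances.

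At 250 to 500 µm on the outer side, C1q was 2.72-fold higher in the Loaded section (429 against 176 UMIs, log2 ratio 1.45, 1.19 to 1.71), and toward the cavity its ratio was -0.37 (-0.91 to 0.16). Cd68 gave 63 against 16 UMIs there (2.14), C1qb 80 against 20 (2.16) and Mrc1 49 against 16 (1.78). C1qc (1.55), C1qa (1.22) and Csf1r (0.88, interval -0.04 to 1.84) were also higher, and Cd163 gave 14 against 18 UMIs (-0.20). So 6 of 7 members were at least 1.5-fold higher and 0 lower, against 22.3% and 27.5% of 8966 genes, with a median of 1.55 for the members and -0.11 for all genes. Toward the cavity 1 of 7, Csf1r with 19 against 5 UMIs, was higher and 0 lower, against 19.1% and 20.4% of 7149 genes.

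Other tissues moved with this outer difference. Muscle genes took 15.6% of UMIs on the outer rim of the Control and 10.8% in the Loaded section, and 26.4% and 18.6% at 250 to 500 µm. At 250 to 500 µm a fibroblast list took 0.127% in the Control and 0.404% in the Loaded section, and the MHC class II genes, expressed by antigen-presenting cells, 0.0504% and 0.262%. On the outer rim the fibroblast share was 0.672% and 0.785%, and the MHC class II share 0.118% and 0.346%. Split by muscle share after seeing the data, outer rim spots below 5% muscle had C1q at 3.69 in the Loaded section (26 spots) and 3.13 in the Control (36 spots), a ratio of 0.24 (-0.02 to 0.50), and the other outer rim spots had 3.09 and 1.76 (0.82, 0.58 to 1.05). Mrc1 differed in both classes, by 1.32 below 5% (0.47 to 2.22, with 34 against 19 UMIs) and by 1.52 above (0.83 to 2.27). Cd68 stood at -0.08 below 5% and 1.15 above. At 250 to 500 µm the spots with at least 5% muscle had C1q at 2.98 and 1.23 (1.28, 1.01 to 1.55), whereas below 5% the Control had 1 spot. The other side of the Control bone had 4 spots at that distance, so the Control value there rests on 75 spots of 1 side, where C1q was 1.19 beside 4.78 and 2.26 on the sides of the Loaded bone. The part of tissue make-up in the outer difference was not tested.

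**Figure D4:**
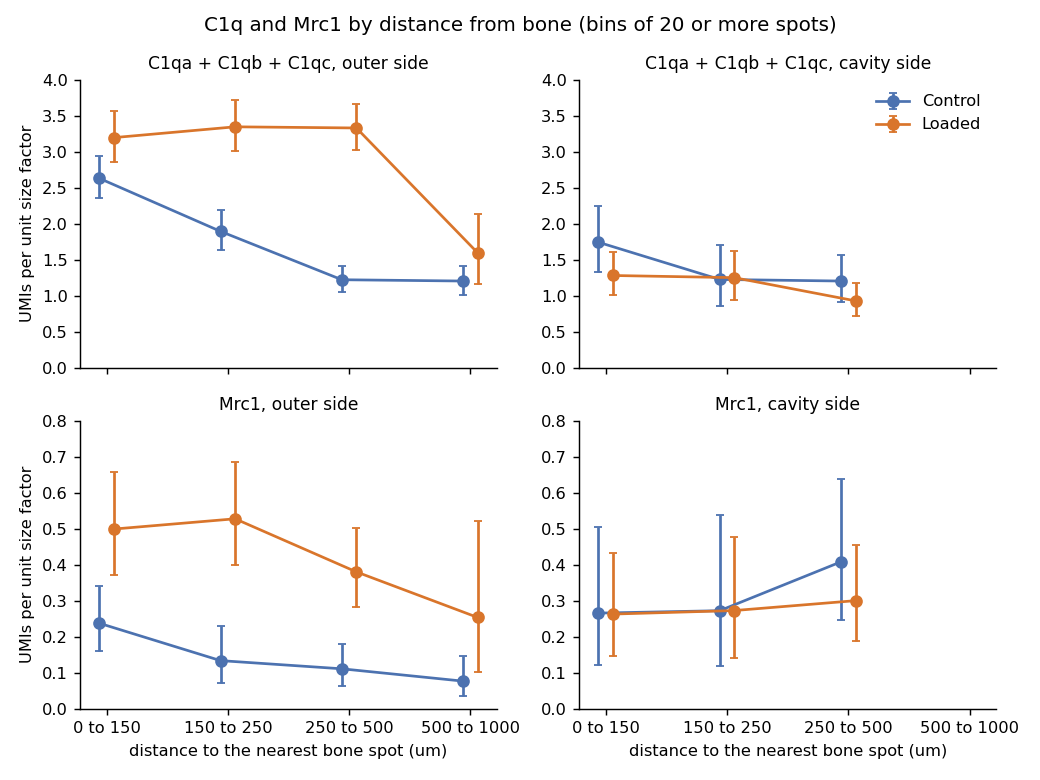
Summed C1q and Mrc1 levels (normalized UMIs per spot, vertical axes) by distance from the nearest bone spot in µm, on the outer and on the cavity side, for the Control and the Loaded section, with exact 95% counting intervals. On the outer side the Loaded C1q level, pooled over sides, held at 3.20 to 3.35 up to 500 µm while the Control level went from 2.63 to 1.22. The last of these Control values came almost only from a single side of the bone.

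The make-up of the signal was examined by setting the other members against C1q, so that a factor common to all of them drops out. Per 100 C1q UMIs, Cd68 gave 24.3 in bone, 19.7 in the rim and 15.5 in the remaining spots of the Control. In the Loaded section it gave 27.5, 19.7 and 19.1. Csf1r gave 24.0, 10.4 and 18.1 in the Control and 17.0, 11.8 and 13.6 in the Loaded section. Of these 3 regions bone had the highest values of Cd68 and Csf1r per C1q, but most intervals overlapped. They stood apart only in the Control. For Cd68 this was bone (18.8 to 31.1) against remaining spots (13.4 to 17.9), and for Csf1r bone (18.5 to 30.8) against rim (7.93 to 13.5). Mrc1 gave 9.12, 9.77 and 13.3 in the Control and 11.3, 16.5 and 15.8 in the Loaded section, and on the outer rim 8.32 and 15.7, so there it exceeded the difference in C1q itself. On the cavity side of the rim Mrc1 gave 17.9 and 21.1, and Cd68 gave 32.6 and 35.9, above its bone values and the 17.4 and 16.3 of the outer side. These Cd68 intervals (21.0 to 49.4 and 25.1 to 50.7) overlapped those of bone in both sections and that of the outer side in the Control. Cd163 gave 1.22, 3.09 and 8.75 in the Control and 1.89, 2.95 and 4.98 in the Loaded section, lowest in bone in each, though its intervals of bone and rim overlapped.

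**Figure D5:**
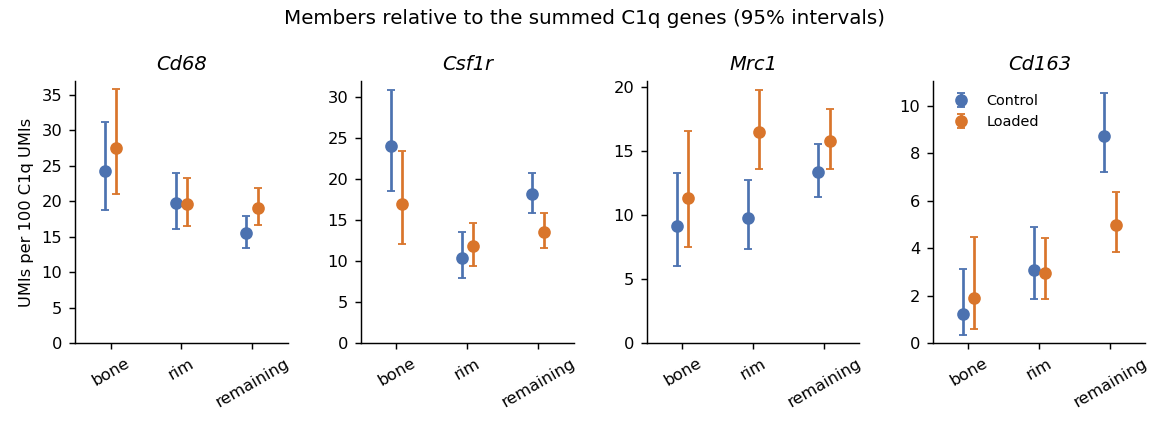
UMIs of Cd68, Csf1r, Mrc1 and Cd163 per 100 C1q UMIs (vertical axis) in bone, rim and remaining spots of the Control and the Loaded section, with 95% counting intervals. Cd68 was highest and Cd163 lowest in bone, though their intervals of bone and rim overlapped. Mrc1 in the rim was 9.77 in the Control and 16.5 in the Loaded section.

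Over tiles of 600 µm (60 in the Control and 45 in the Loaded section), the summed C1q level ran from 0.189 to 3.62 with a median of 0.907 in the Control and from 0.186 to 4.11 with a median of 1.16 in the Loaded section. The C1q chains varied together, with r = 0.69 and 0.85 for C1qa and C1qb, 0.65 and 0.73 for C1qa and C1qc, and 0.36 and 0.69 for C1qb and C1qc. Mrc1 correlated with C1qa at 0.34 in the Control and 0.67 in the Loaded section, and Cd163 at 0.27 and 0.15. In the Control, Mrc1 was closer to lists of other cells than to C1qa. Its values in Control and Loaded tiles were 0.69 and 0.27 for erythroid genes and 0.64 and 0.36 for lymphocyte genes. For granulocyte genes they were 0.63 and 0.18, and for MHC class II genes 0.62 and 0.70. All tiles of a section share 1 library, and sparse counts lower such values.

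Among 4274 genes with at least 200 UMIs in each section, the gene outside the members whose tiles were most like summed C1q was Col3a1, the chain of type III collagen, with r = 0.81 and 0.85, followed by the calcium-binding S100a6 (0.78 and 0.86) and the proteoglycan Bgn (0.77 and 0.79). The rest of the first 12 were Vim, Tagln2, Sfrp4, Ecm1, Igfbp4, Sparc, Fn1, Mmp2 and Col6a1. Of these, 7 were again among the first 12 with tiles of 400 µm and 3 with tiles of 900 µm. Summed C1q correlated with the fibroblast list at 0.75 and 0.82, with the MHC class II list at 0.65 and 0.84 and with the muscle list at -0.56 and -0.31. Its values with the granulocyte list, 0.16 and -0.16, were near 0.

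Other genes of the macrophage programme were followed from 8 lists, whose counts of genes past 1.5-fold are to be read against the shares of all genes: 27.1% higher and 17.6% lower in bone, 17.0% and 17.7% in the rim, and 18.6% and 14.8% in the remaining spots. Of the CSF1 axis and myeloid transcription factors, Spi1, which encodes PU.1, was higher in the Loaded rim (74 against 26 UMIs, log2 ratio 1.39, 0.73 to 2.10). Its blocks did not overlap, while 2.69% of all genes had all blocks higher and 2.09% all blocks lower in the rim. In the rim 1 of 6 genes of that list was at least 1.5-fold higher and 2 were lower, with a median of -0.36. The list of resident and scavenger macrophage genes had 3 of 6 higher and 1 lower in the rim (median 0.51), led by Clec10a, a lectin of tissue macrophages and dendritic cells (66 against 25 UMIs, 1.29, 0.60 to 2.01), and Stab1, a scavenger receptor (158 against 82, 0.83, 0.44 to 1.23). In bone 4 of 4 were higher (median 0.80), and in the remaining spots 2 of 8 were higher and 3 lower (median -0.05).

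Genes of iron recycling included Hmox1, the haem oxygenase, at 60 against 34 UMIs in bone (1.25, 0.62 to 1.90) and 158 against 64 in the rim (1.19, 0.76 to 1.63), and of that list 1 of 4 was higher and 1 lower in bone, 2 of 4 were higher and 0 lower in the rim, and 4 of 6 were higher and 0 lower in the remaining spots. Of the genes for clearance of dying cells, the receptor gene Mertk was higher in Loaded bone (42 against 19 UMIs, 1.57, 0.76 to 2.44). Its blocks did not overlap, while 4.99% of all genes had all blocks higher and 2.31% all blocks lower in bone. Of this list 1 of 7 genes was higher and 2 were lower in bone (median -0.34). In the rim that list had 0 higher and 0 lower of 7. The phagolysosome and lipid list had 0 higher and 4 lower of 12 in bone (median -0.44), 2 and 2 of 12 in the rim (0.15) and 6 and 0 of 12 in the remaining spots (0.49). Its gene Gpnmb, a glycoprotein of macrophages and osteoclasts, had opposite signs, with 24 against 92 UMIs in bone (-1.51, -2.22 to -0.85) and 283 against 158 in the remaining spots (1.54, 1.25 to 1.83). Tyrobp, the signalling adaptor of TREM2, was higher in the rim (183 against 84, 1.01).

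Of the complement partners of C1q in the rim, the central component C3 gave 372 against 133 UMIs (1.37, 1.08 to 1.67), and the anaphylatoxin receptor C5ar1 84 against 33 (1.23, 0.64 to 1.86). Over the whole list, 4 of 8 were higher and 1 lower in the rim (median 0.50), 1 and 1 of 8 in bone (-0.07), and 4 and 0 of 8 in the remaining spots (0.66). Inflammatory cytokines and enzymes were too sparse to test in bone, with 0 higher and 1 lower of 4 in the rim and 3 and 1 of 8 in the remaining spots. Repair-associated macrophage genes had 2 higher and 1 lower of 4 in bone, 0 and 0 of 4 in the rim and 1 and 0 of 6 in the remaining spots.

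Lists of other cells also differed between the sections in the same regions. The granulocyte list had 9, 10 and 9 of 10 genes at least 1.5-fold higher in bone, rim and remaining spots of the Loaded section and 0 lower, with medians of 1.93, 1.69 and 1.14. Its summed level was 2.87, 3.80 and 2.93 in the Control and 11.7, 14.5 and 6.93 in the Loaded section. With only the spots at or below the median granulocyte share of their own section, the summed macrophage ratio of Loaded over Control was 0.24 in bone, 0.57 in the rim and 0.80 in the remaining spots. The MHC class II list had 4, 5 and 4 of 5 genes higher (medians 0.72, 1.16 and 0.83), with levels of 4.12, 4.13 and 2.53 in the Control and 6.78, 9.09 and 5.16 in the Loaded section. The monocyte list had 3 of 4 higher and 1, Fn1, lower in bone, 2 of 4 higher and 0 lower in the rim and 3 of 5 higher and 0 lower in the remaining spots. Its summed level was 5.74, 6.63 and 2.91 in the Control and 4.69, 6.46 and 3.93 in the Loaded section. Fn1 gave 5872 Control and 4163 Loaded UMIs, most of those of the list, so this sum mainly follows Fn1. Dendritic cells also express MHC class II genes and Mrc1, and their part in the Mrc1 difference was not tested.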

How the data were processed

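Visium spatial gene expression was measured for paraffin sections of 1 Control and 1 Loaded femur. The deposited values are raw UMI counts per gene and spot, made by the authors with Space Ranger 2.0.0 against mm10 and GENCODE M21. The kept spots held 8984212 UMIs in the Control and 4908807 in the Loaded section. The sections share 557 spot barcodes, which name positions on the slide. Doublet calling does not apply to spots.

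Spots with at least 500 UMIs and 250 genes were kept, following the study's methods. The 64 Control and 5 Loaded spots below these limits held 14 and 2 UMIs of the 9 genes. Bone spots came from the study's list of barcodes. Size factors were computed with scran 1.30.0 in R 4.3.3 over all kept spots, and sums, ratios and intervals with pandas 2.3.3 and scipy 1.17.1 under Python 3.11.15. A ratio is that of summed UMIs over summed size factors, with an exact conditional binomial interval, and ratios are given on the log2 scale. No pseudocount was added, but a sum of 0 was set to 3 UMIs for the ratio, which gives a bound. Where that bound pointed the other way, the ratio was set to 0. The study's spot-level test was not repeated, since spots of 1 section are not replicates. Genes with at least 10 UMIs over the regions compared entered the counts of genes past a fold of 1.5. Tiles were square, held at least 8 spots and were compared on the scale of log2 (level + 0.05). Thinning drew a fixed number of UMIs from each spot at random with a fixed seed. The ratios and intervals were tested on simulated data with known folds.

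The 9 members were named in every region. From each other list, genes with the highest and the lowest ratio among those with at least 50 UMIs, and genes needed to describe the list, were named. The members and lists were chosen with earlier results of these data known. Ratios were recomputed with TMM factors (edgeR 4.0.16), library totals, other spot weights, rims and tissue choices, and without single blocks. In the files 22 gene identifiers share their symbol with another, and 5 list genes were not analysed here. Single genes of 2 of these lists are not reported here.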

Additional observations from a re-analysis of the deposited data

How the results depend on the processing

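No paired analysis was possible because each condition has 1 section. For the 9 genes summed, the log2 ratios of Loaded over Control (0.12 in bone, 0.38 in the rim and 0.61 in the remaining spots) and of bone and rim over remaining (1.05 and 1.05 in the Control, 0.56 and 0.82 in the Loaded section) stayed within their counting intervals with TMM factors, with no filter on spots and without Lyz2, although the ratio in bone, whose interval held 0, was -0.05 with TMM factors. Scaling by library totals gave 0.54 and 0.99 for Loaded over Control in rim and remaining, 1.67 and 1.51 for bone and rim over remaining in the Control, and 0.81 and 1.06 in the Loaded section. Totals without the 20 most abundant genes gave 0.75 for Loaded over Control in the remaining spots, 1.36 and 1.25 over remaining in the Control and 0.92 for the Loaded rim. With equal weight for every spot, Loaded over Control was 0.29 in the remaining spots and 0.17 in the rim, bone and rim over remaining were 0.81 and 0.84 in the Control, and the Loaded rim was 0.71.

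Spots at or below the median granulocyte share gave 0.80 and 0.57 for Loaded over Control in remaining and rim, 1.32 and 1.23 over remaining in the Control, and 0.77 and 0.99 in the Loaded section. Spots below 5% muscle gave -0.19 in bone, 0.036 in the remaining spots and, with a turned sign, -0.0689 in the rim for Loaded over Control. They gave 0.66 and 0.56 over remaining in the Control and 0.46 for the Loaded rim. In the same spots the ratio of Loaded over Control turned to -0.20 for C1qa and -0.20 for summed C1q in the rim and to -0.0059 for C1qa in the remaining spots, and Mrc1 in the Control rim over remaining turned to -0.22. Remaining spots that were not muscle-rich, an alternative chosen after seeing the data, gave 0.25 for Loaded over Control, 0.41 and 0.41 over remaining in the Control, 0.27 and 0.53 in the Loaded section, and -0.26 for Mrc1 in the Control rim.

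A rim of 150 µm gave 0.14 for Loaded over Control, 1.20 over remaining in the Control, and 0.40 for bone and 0.65 for rim over remaining in the Loaded section. A rim of 350 µm gave 0.56 for Loaded over Control in the rim, 0.36 in the remaining spots, 0.84 for the Control rim, and 0.82 and 1.03 over remaining in the Loaded section. Leaving out single blocks gave ranges of -0.14 to 0.34 in bone, 0.15 to 0.54 in the rim and 0.34 to 0.80 in the remaining spots for Loaded over Control. Over remaining they were 0.78 to 1.31 for bone and 0.78 to 1.22 for the rim in the Control, and 0.37 to 0.70 and 0.59 to 0.98 in the Loaded section. The cause of these shifts was not tested. Among single members and summed C1q, 988 recomputed values stayed within the counting interval of the reported ratio and 180 moved beyond it. The sign changed in 68, of which 5 were ratios whose interval had excluded 0. Adgre1 and Lyz2 gave 39 and 34 UMIs in all, and on the cavity side of the Control rim Cd163 gave 4, so depth limits their ratios.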
